A study of Mus musculus with 9 samples.

Results

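Vimentin and 9 genes that regulate or mark the epithelial-mesenchymal transition were read from 1 count table of 9 RNA-seq libraries of HC11 cells, a mouse mammary epithelial line. The 10 genes, all of them found by name among the 54532 genes of the table, are Vim, Cdh2, Snai1, Snai2, Zeb1, Zeb2, Twist1, Grhl2, Esrp1 and Ovol1. The cells are labelled as C57BL/6 mammary epithelial cells, grown in DMEM with 10% serum, although the series title speaks of human tissue. Of the 3 groups of 3 libraries, Ctrl received no light, while light of 660 nm was given to EpPT1 and to EpPT2. Fluence is labelled as 10 J/cm2 (EpPT1) or 20 J/cm2 (EpPT2), but the treatment text has 0.5 or 1 J/cm2 with a laser of 10 mW, and the groups are therefore named without a dose. Whether the 3 libraries of a group are separate cultures is not labelled. The p-values here therefore reflect how far the 9 libraries vary among each other, and this variation could be technical. How long after the light the cells were lysed is not stated.

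In the epithelial-mesenchymal transition, cells that are joined by E-cadherin loosen from each other and take on a spindle shape and the vimentin filaments of mesenchymal cells. Zinc finger factors of the Snail family (Snai1, Snai2) and the Zeb family (Zeb1, Zeb2) and the helix-loop-helix factor Twist1 bind short DNA sites called E-boxes and repress epithelial genes such as Cdh1, which encodes E-cadherin. On the other side, Grhl2 and Ovol1 are transcription factors that keep the epithelial state and repress Zeb1, and Esrp1 is an RNA-binding protein that sets epithelial splicing. MicroRNAs of the miR-200 family bind the messenger RNAs of Zeb1 and Zeb2 and lower their output, and Zeb1 and Zeb2 in turn repress the genes of these microRNAs.

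The miR-200 seeds and their matches are shown because they mark what Zeb1 and Zeb2 share and the other 8 genes mostly lack. The family has 2 seeds, the bases 2 to 8 that pair with a target, here in capitals in the mature sequences of RefSeq (GRCm38.p6). The first is shared by miR-200a and miR-141, the second by miR-200b, miR-200c and miR-429.
mmu-miR-200a-3p: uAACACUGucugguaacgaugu
mmu-miR-200b-3p: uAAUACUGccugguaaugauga
In the longest annotated 3′UTR of each gene (GENCODE mouse release 21, GRCm38), the letters CAGTATT, complementary to the second seed and read on the transcript strand, occurred 5 times in Zeb1 and 5 times in Zeb2. Snai1 and Snai2 held 1 match each, and the remaining 6 genes held 0. Most 3′UTRs as long as those of these 8 genes lack the motif too. It was held by 3.0% (length of Vim) to 25.8% (length of Grhl2) of them. Among 3′UTRs within 25% of its length, 23.5% held the motif for Zeb1 (3333 3′UTRs) and 36.0% for Zeb2 (1344 3′UTRs), and 0.03% and 0.22% held at least 5 copies. The letters CAGTGTT, complementary to the first seed, occurred 4 times in Zeb1 and 4 times in Zeb2, and 29.4% and 49.7% of 3′UTRs of like length held them at least once. At least 4 copies were held by 0.15% (Zeb1) and 1.41% (Zeb2) of 3′UTRs of like length. Snai2 and Grhl2 held 1 match to the first seed each. The 5 matches to the second seed in Zeb2, on the minus strand of chromosome 2, follow with the match in capitals.
Zeb2 match at chr2:44988171-44988194: gcactaccatacatCAGTATTtta
Zeb2 match at chr2:44988106-44988129: gcactacagtgcatCAGTATTacg
Zeb2 match at chr2:44987744-44987767: tgaagcacccgtgtCAGTATTaga
Zeb2 match at chr2:44987659-44987682: ttcattaattttgtCAGTATTaca
Zeb2 match at chr2:44987525-44987548: catactgtagtgtaCAGTATTata
A match is a description of letters, not of binding. The 5 precursor genes of the family had 1 count in all 9 libraries together, in Mir200b, but mature microRNAs were not measured here.

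The window before the start of Snai1 is shown because Snail proteins are known to bind an E-box in the promoter of their own gene, and that of Twist1 because no count of it was found in any library. Of the 10 genes, 4 had a RefSeq promoter entry, and the 250 bases before the start are given on GRCm38.p6, with any E-box (CANNTG, the same on both strands) in capitals.
Snai1, plus strand, chr2:167537945-167538194: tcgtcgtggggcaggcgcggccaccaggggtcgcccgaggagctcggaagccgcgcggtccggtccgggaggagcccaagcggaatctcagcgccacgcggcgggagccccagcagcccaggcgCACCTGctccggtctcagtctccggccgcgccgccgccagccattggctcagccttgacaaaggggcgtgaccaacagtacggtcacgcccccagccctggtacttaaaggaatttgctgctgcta
Twist1, plus strand, chr12:33957421-33957670: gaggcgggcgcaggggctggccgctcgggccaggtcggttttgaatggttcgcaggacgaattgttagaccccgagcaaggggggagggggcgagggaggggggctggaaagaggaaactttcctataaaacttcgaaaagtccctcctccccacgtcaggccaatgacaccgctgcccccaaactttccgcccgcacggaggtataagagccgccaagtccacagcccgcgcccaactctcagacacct
Snai1 held 1 E-box, of the CAGGTG kind (CACCTG on the strand shown), and Twist1 held 0. Of 32851 windows of this length, 17.2% held CAGGTG on either strand and 66.2% held CANNTG.

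Total counts were 14549787 to 17228929 per library, and 14471 genes were abundant enough to test. The share of counts on mitochondrial genes was 6.06% to 7.48% in Ctrl 3, EpPT1 3, EpPT2 2 and EpPT2 3 and 2.74% to 3.62% in the other 5 libraries. Each group held libraries with a high and with a low share, but the share was not balanced. EpPT2 held more high libraries than Ctrl or EpPT1. Of 10 luminal epithelial markers, Krt8, Krt18, Krt19 and Krt7 had 249 to 1016 CPM (counts relative to the library total, here before scaling by TMM, a correction for library composition) and Epcam 17.8 to 44.1, while Cdh1 had 0.236 to 0.756 and Elf5 and Gata3 at most 0.206. The claudin genes Cldn3 and Cldn4 had 80.7 to 606 and 7.75 to 86.2 unscaled CPM. The epithelial label was thus borne out by keratins, claudins and Epcam, and not by Cdh1, Elf5 or Gata3. Of 10 fibroblast markers, Dcn had 762 to 2965 unscaled CPM, Twist2 4.06 to 9.49 and Pdgfra 2.67 to 7.97. Col1a1 and Col3a1 had 0.249 to 3.47, Lum, Col1a2, Pdgfrb and Postn at most 0.443, and Thy1 had 0 counts in every library.

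Vim, which encodes the main intermediate filament protein of mesenchymal cells, stood far above the other 9 genes. Levels of different genes are compared as CPM per kilobase, scaled by TMM and divided by the gene length in the authors' table. On that scale Vim had 287 ± 142 (mean ± SD over the 9 libraries), against 614 for the keratin gene Krt18. Snai1 came next at 3.99 ± 2.37, then Zeb1 at 3.28 ± 1.02 and Cdh2, the gene of N-cadherin, at 2.87 ± 0.857. Zeb2 had 0.567 ± 0.279 and Grhl2 0.549 ± 0.249 CPM per kilobase. Within the trio Snai1, Zeb1 and Cdh2, and within the pair Zeb2 and Grhl2, the means lay within the spread over the 9 libraries, which was not tested. Inside a library the pair could differ in either direction. Zeb2 and Grhl2 had 0.955 and 0.223 CPM per kilobase in Ctrl 1, and 0.243 and 0.765 in EpPT1 3. Ovol1 had 0.0528 ± 0.0647 and Esrp1 0.00606 ± 0.0118, from 21 and 5 counts in all, and Snai2 and Twist1 had 0 counts in all 9 libraries. A count of 0 allows up to 3 counts, which is 0.206 unscaled CPM in the shallowest library and covers counting error only.

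**Figure D1:**
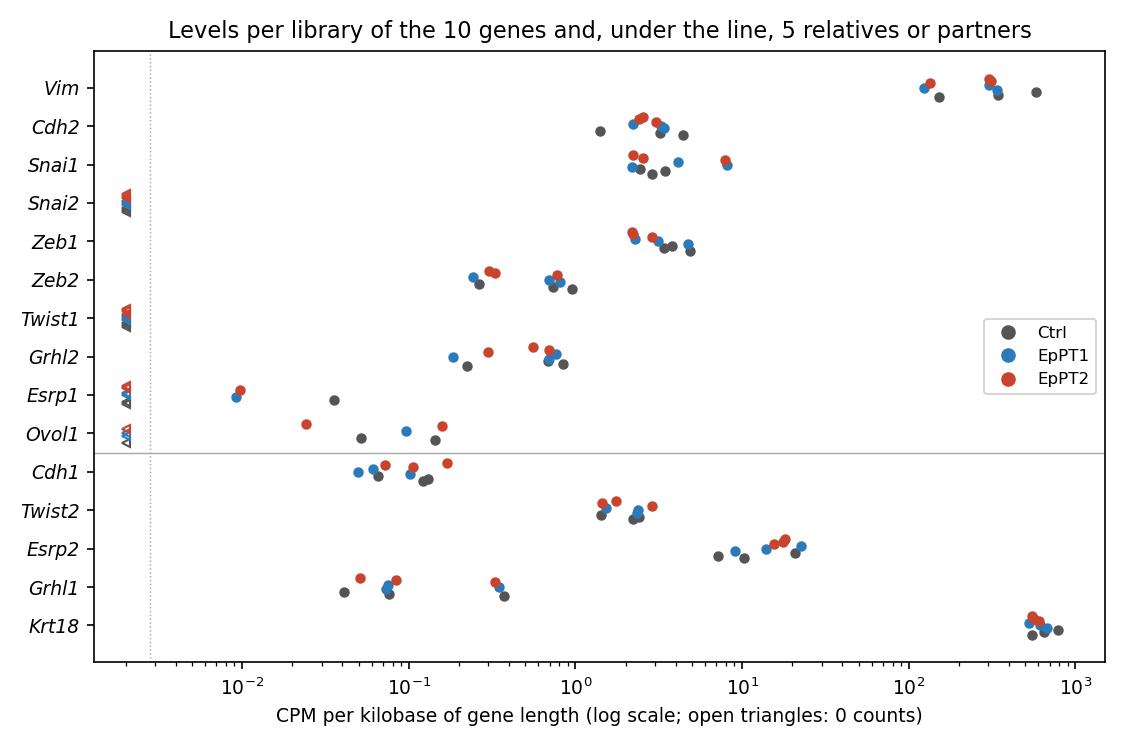
Level of each gene in each library, as TMM-scaled CPM per kilobase of gene length on a log axis, coloured by group, with libraries of 0 counts as open triangles at the left. Vim lies around 287 CPM per kilobase, Snai2 and Twist1 are at 0 counts in every library, and the relatives Twist2 and Esrp2 under the line are present.

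Relatives of some of the missing genes were present. Of the Snail family, Snai1 was present, Snai2 had 0 counts, and Snai3 had 21 counts in all and at most 0.396 CPM. Twist2, the closest relative of Twist1, had 4.5 to 9.14 CPM in the 9 libraries, while Twist1 had 0 counts. Esrp2, which shares the splicing role of Esrp1, had 30.9 to 98.2 CPM, while Esrp1 had 3 counts in Ctrl 3 and 1 count each in EpPT1 1 and EpPT2 1. Ovol2, the relative of Ovol1, had 0 counts, and Ovol1 itself had 7 counts in Ctrl 2 and EpPT2 2 and 0 to 4 in each other library. For Ovol1 the overlapping Gm31166 on the opposite strand had 4 to 14 counts, and for Esrp1 the overlapping Gm26663 had up to 3, so the strand of these few reads cannot be told. Of the cadherins, Cdh2 had 11.3 to 35.6 CPM and Cdh1 0.226 to 0.777 CPM.

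Vim (ENSMUSG00000026728, chromosome 2, 13573927 to 13582826, GRCm38) had 721, 1634 and 2746 CPM in the Ctrl libraries, 1601, 586 and 1439 in those of EpPT1, and 636, 1469 and 1439 in those of EpPT2, in the order of replicates 1 to 3. One library of each group was low (Ctrl 1, EpPT1 2 and EpPT2 1) and the other 6 were at 1439 CPM or above, so the groups overlapped. Means were 1700.2 ± 1014 CPM in Ctrl, 1209 ± 546 in EpPT1 and 1181 ± 473 in EpPT2 (SD, n = 3 each). The log2 difference from Ctrl was −0.49 (SE 0.52) in EpPT1 and −0.53 (SE 0.52) in EpPT2, with edgeR adjusted p = 0.991 and 0.668. Without Ctrl 3, the highest library, these differences were 0.04 and 0.00, and without Ctrl 1, the lowest Ctrl library, −0.86 and −0.89. In bulk RNA, fewer cells of a kind and less RNA per cell cannot be told apart.

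Cdh2 (ENSMUSG00000024304, chromosome 18, 16588877 to 16809246) had 35.6, 25.8 and 11.3 CPM in the Ctrl libraries, 27.4, 26.2 and 17.7 in those of EpPT1, and 24.6, 19.5 and 20.5 in those of EpPT2. Ctrl held both the highest and the lowest value, and all exposed libraries lay between them. The log2 difference from Ctrl was −0.03 (95% interval −0.87 to 0.81) in EpPT1 and −0.17 (−1.01 to 0.67) in EpPT2, and without Ctrl 1 it was 0.36 and 0.22. N-cadherin RNA was therefore not detectably different. The intervals still allow a change of 1.75-fold upward in EpPT1. They also allow a fall to 0.549 times the Ctrl level in EpPT1 and to 0.497 times in EpPT2.

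**Figure D2:**
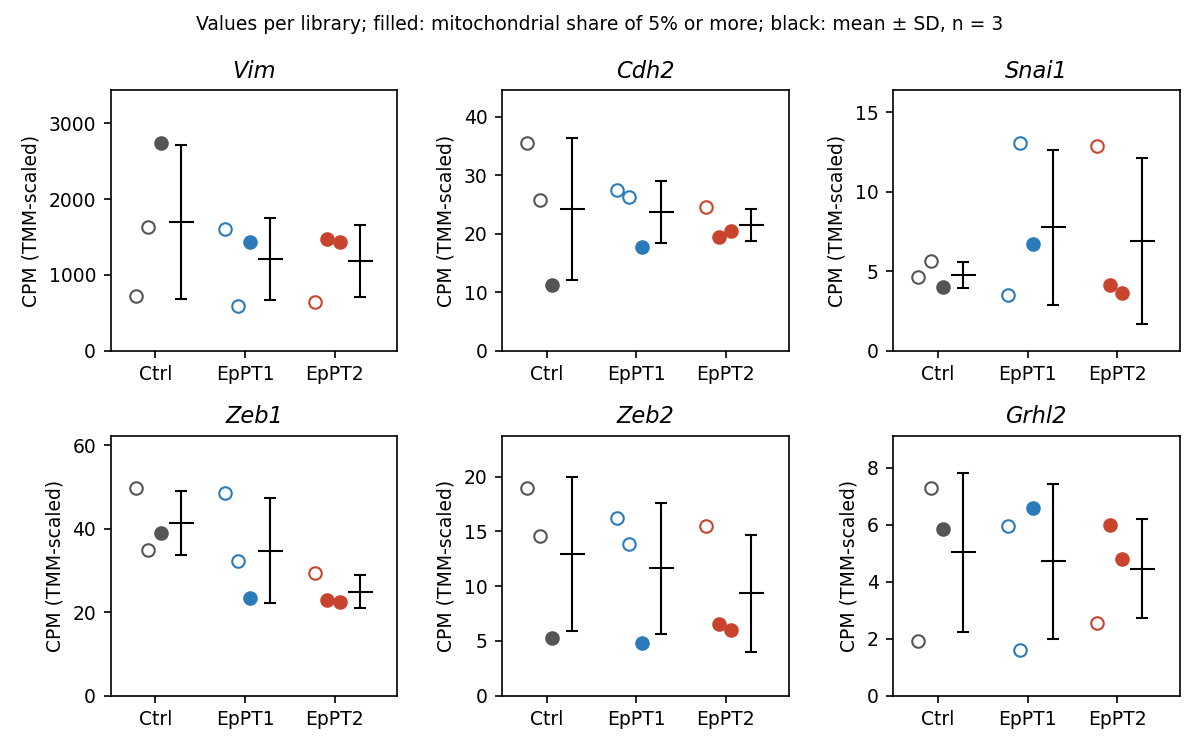
TMM-scaled CPM of the 6 tested genes in each library by group, with the mean ± SD of each group (n = 3) in black; filled points are libraries with a mitochondrial share of 5% or more. The groups overlap for each gene except Zeb1, where the EpPT2 libraries (22.4 to 29.5 CPM) lie under the Ctrl libraries (35 to 49.9 CPM).

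Among the repressors of epithelial genes, Zeb1 (ENSMUSG00000024238, chromosome 18, 5591860 to 5775467) had 49.9, 35 and 39.1 CPM in the Ctrl libraries, 48.5, 32.4 and 23.5 in those of EpPT1, and 29.5, 22.9 and 22.4 in those of EpPT2. Each EpPT2 library lay under each Ctrl library, while EpPT1 overlapped both. The log2 difference of EpPT2 from Ctrl was −0.73 (SE 0.29, 95% interval −1.38 to −0.08), and Zeb1 did not pass in edgeR (unadjusted p = 0.0316, adjusted p = 0.382). In that comparison 10.9% of all genes tested were lower without overlap (23.2% in either direction), and 5.31% were lower with an unadjusted p under 0.05 (12.2% in either direction). Zeb1 in EpPT1 differed from Ctrl by −0.25 (SE 0.29), and EpPT2 from EpPT1 by −0.48 (SE 0.29). The first 2 of these 3 comparisons share the Ctrl libraries. With a correction for the GC trend of each library, the Zeb1 difference of EpPT2 from Ctrl was −0.48. In the 5 libraries whose mitochondrial share was low it was −0.51, with EpPT2 1 as the lone library of its group, taken to vary like the other groups (edgeR adjusted p = 0.919).

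Zeb2 (ENSMUSG00000026872, chromosome 2, 44983632 to 45117395) had 19.0, 14.6 and 5.26 CPM in the Ctrl libraries, 16.2, 13.8 and 4.85 in those of EpPT1, and 15.5, 6.53 and 6.00 in those of EpPT2. Its values fell into a low set of 4 libraries at 4.85 to 6.53 CPM and a high set of 5 at 13.8 to 19.0 CPM, and each group held libraries of both sets. The difference from Ctrl was −0.16 (SE 0.58) in EpPT1 and −0.48 (SE 0.58) in EpPT2, on the log2 scale, with edgeR adjusted p = 0.991 and 0.738. Without Ctrl 1 the difference in EpPT1 was 0.22, and without EpPT2 1 that in EpPT2 was −1.06. The antisense gene Zeb2os had 0 to 5 counts per library, against 70 to 307 for Zeb2.

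Snai1 (ENSMUSG00000042821, chromosome 2, 167538195 to 167542814) had 4.65, 5.62 and 3.98 CPM in the Ctrl libraries, 3.52, 13.1 and 6.72 in those of EpPT1, and 12.9, 4.16 and 3.60 in those of EpPT2. The libraries EpPT1 2 and EpPT2 1 were at 13.1 and 12.9 CPM, and the other 7 libraries at 3.52 to 6.72 CPM. With 232 and 211 counts in these 2 libraries and 51 to 97 in the rest, Snai1 was among the thinner genes. The log2 difference from Ctrl was 0.71 (SE 0.58) in EpPT1 and 0.53 (SE 0.58) in EpPT2, with edgeR adjusted p = 0.991 and 0.698. A single library set each value, since without EpPT1 2 the first was 0.10 and without EpPT2 1 the second was −0.30. With the GC correction the second was −0.14, and the GC content of Snai1 is 59.8%, the highest of the 10 genes.

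Of the epithelial regulators, Grhl2 (ENSMUSG00000022286, chromosome 15, 37233036 to 37363569) was the one abundant enough to test. It had 1.92, 7.30 and 5.86 CPM in the Ctrl libraries, 5.94, 1.59 and 6.59 in those of EpPT1, and 2.56, 6.00 and 4.80 in those of EpPT2. Again 1 library of each group was low, at 28 to 42 counts, and the other 6 had 68 to 122 counts. The difference from Ctrl was −0.10 (SE 0.62) in EpPT1 and −0.17 (SE 0.62) in EpPT2, with edgeR adjusted p = 0.996 and 0.921. Without EpPT1 2 and without Ctrl 2 these values were 0.32 and 0.20.

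In all, 0 of the 6 tested genes passed in any of the 3 comparisons, where edgeR called 0% of the 14471 genes in each. DESeq2 and limma-voom also called 0 of the 6, and in each of the 3 tools Zeb1 in EpPT2 against Ctrl was the single value with an unadjusted p under 0.05. Over all genes tested, 3.93% had an unadjusted p under 0.05 in EpPT1 against Ctrl and 0.214% in EpPT2 against EpPT1, and 5.26% and 2.45% did not overlap, against 0 of the 6 by either measure. Relative to Ctrl, the median log2 difference of the 6 was −0.13 for EpPT1 and −0.33 for EpPT2, beside −0.02 and −0.03 over all genes. Between the exposed groups it was −0.16, beside −0.01. The smallest standard error among the 6, that of Zeb1, was 0.29, and the largest, that of Grhl2, was 0.62, so that changes of Grhl2 between 0.341 and 2.31 times its Ctrl level lay within its interval in EpPT2.

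**Figure D3:**
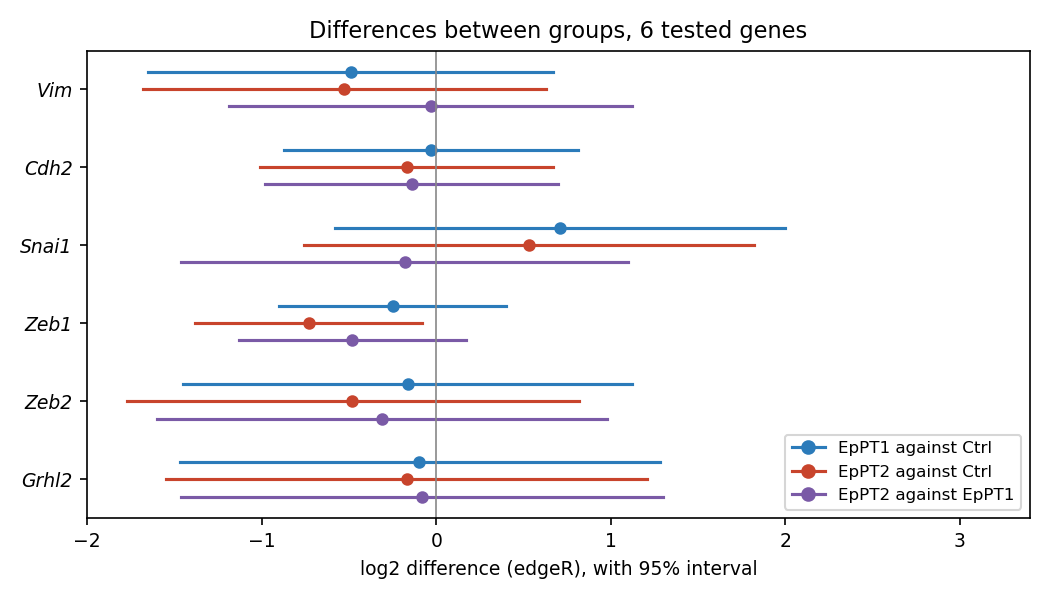
Log2 difference between groups for the 6 tested genes (points) with its 95% interval (lines), from the edgeR fit to all 9 libraries. The interval of Zeb1 in EpPT2 against Ctrl (−1.38 to −0.08) is the one that does not hold 0, and that gene did not pass after adjustment in edgeR (adjusted p = 0.382).

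Vim and Grhl2 were low in the same 3 libraries. In Ctrl 1, EpPT1 2 and EpPT2 1, Vim had 586 to 721 CPM and Grhl2 1.59 to 2.56 CPM, and in the other 6 libraries Vim had 1439 to 2746 and Grhl2 4.80 to 7.30 CPM. Snai1, a repressor of epithelial genes, was highest in 2 of these 3 libraries (EpPT1 2 and EpPT2 1) and had 4.65 CPM in Ctrl 1. Likeness was measured as the root mean square difference over the 9 libraries between log2(CPM + 0.5) values, each centred on the mean of its gene. By this measure Vim and Grhl2 differed by 0.33, Vim and Cdh2 by 1.06, Vim and Snai1 by 1.26 and Vim and Zeb2 by 1.28. Zeb2 and Cdh2 lay close to each other at 0.40, and Zeb1 was nearer to Cdh2 (0.47) and Zeb2 (0.54) than to Vim (0.83). The mesenchymal marker Vim thus moved with an epithelial regulator and apart from Cdh2, Zeb2 and Snai1 in these libraries. This pattern over 9 libraries was not tested. It was not particular to Vim and Grhl2. In Ctrl 1, EpPT1 2 and EpPT2 1, Krt19 had 245 to 278 CPM and Cd44 545 to 677. In the other 6 libraries they had 431 to 638 and 861 to 1194 CPM, while Krt18 did not split so. EpPT1 2 and EpPT2 1 were also close to each other over all genes (chi-square per gene 5.66).

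**Figure D4:**
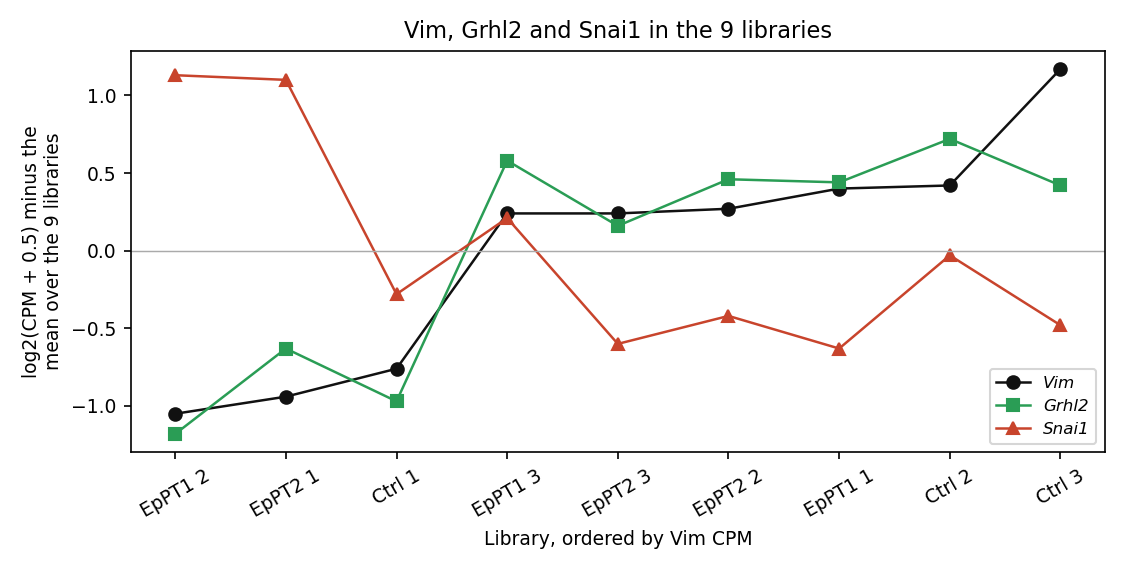
Vim, Grhl2 and Snai1 as log2(CPM + 0.5) minus the mean of each gene over the 9 libraries, with libraries ordered by Vim. Vim and Grhl2 are lowest in EpPT1 2, EpPT2 1 and Ctrl 1, and Snai1 is highest in the first pair of these.

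The 5 genes most like Vim among 9617 candidates were Fam114a1 and the matrix proteoglycan gene Dcn, both at 0.17, the phosphofructokinase gene Pfkp at 0.18, and Rmc1 and Hspb11 at 0.19. The median candidate was at 0.81. Dcn had 1293, 2143 and 3288 CPM in the Ctrl libraries, 2093, 733 and 1812 in those of EpPT1, and 756, 1998 and 2111 in those of EpPT2, so it too was lowest in EpPT1 2, EpPT2 1 and Ctrl 1. The choice of these genes rested on few libraries, since 1 of the 5 remained without Ctrl 3 and 3 remained without Ctrl 1 or without EpPT1 2.

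Zeb2 followed the mitochondrial share of the libraries instead. In the 5 libraries with a low share Zeb2 had 13.8 to 19.0 CPM, and in the 4 with a high share 4.85 to 6.53 CPM. In a fit with the group and the mitochondrial share, Zeb2 fell by 0.40 (SE 0.05) on the log2 scale per percentage point of the share. Its edgeR adjusted p was 2.2e-04, and Zeb2 still passed when any 1 library was left out. That check is limited, since EpPT1 3, EpPT2 2 and EpPT2 3 were close to each other over all genes (chi-square per gene 4.95 to 9.26). Cdh2 fell by 0.21 (SE 0.05) per percentage point (adjusted p = 0.00775), with 24.6 to 35.6 CPM at a low and 11.3 to 20.5 at a high share, and did not pass without Ctrl 3 (adjusted p = 0.101). Vim rose by 0.28 (SE 0.08) per percentage point (adjusted p = 0.012), but the sets overlapped at 586 to 1634 and 1439 to 2746 CPM, and it did not pass without Ctrl 1, Ctrl 3 or EpPT2 1 (adjusted p = 0.0502, 0.0929 and 0.0588). Snai1 (−0.21, SE 0.10), Zeb1 (−0.10, SE 0.05) and Grhl2 (0.23, SE 0.12) did not pass, with edgeR adjusted p = 0.112 to 0.134. Without EpPT1 1, Snai1 (−0.25) and Grhl2 (0.30) passed as well, as did Grhl2 without Ctrl 2 (0.31) and Snai1 with the GC correction (−0.28). With the replicate number as a block, 0 of the 6 genes passed, and the Zeb2 slope was −0.36 (edgeR adjusted p = 0.203). The share was high in every library numbered 3 and low in every library numbered 1, so the block overlaps with it.

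The 3 calls among 6 genes in the fit without a block stand beside 41.8% of all genes tested that edgeR called for this slope. The share of calls is thus near the background. Of all genes, 20.2% rose and 21.6% fell, beside 1 and 2 of the 6. The ratio of Zeb1 to Zeb2 per length was 3.70 to 5.83 in the 5 libraries with a low share and 6.81 to 14.5 in the 4 with a high share. Summed basal epithelial markers, led by Krt14, had 8.07 to 12.4 unscaled CPM at a low and 20.9 to 25.4 at a high share. Blood and immune markers, led by Cd68, had 14.4 to 53.2 and 94.1 to 106 CPM, while the leukocyte marker Ptprc had at most 0.750. The part of these in the slopes was not tested.

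**Figure D5:**
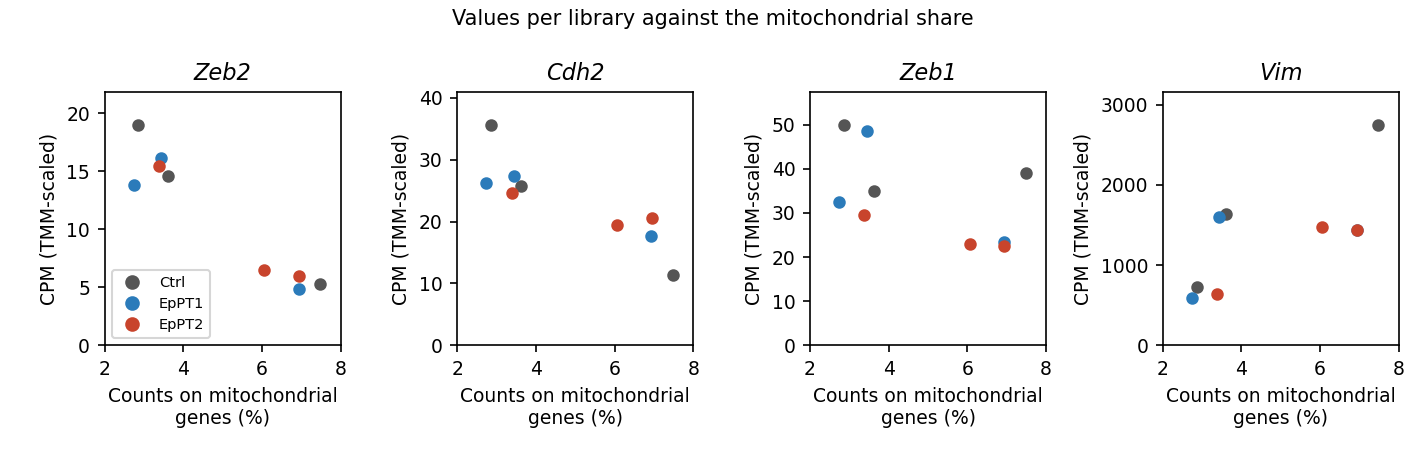
TMM-scaled CPM of Zeb2, Cdh2, Zeb1 and Vim in each library against the percent of its counts on mitochondrial genes, coloured by group (for Vim, the points of EpPT1 3 and EpPT2 3 coincide). Zeb2 lies at 13.8 to 19.0 CPM in the 5 libraries at 2.74% to 3.62% and at 4.85 to 6.53 CPM in the 4 libraries at 6.06% to 7.48%.

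Other genes of the transition were taken from fixed lists, none of whose members passed in edgeR in the 3 comparisons of groups with the filter on low counts. Without that filter, 3 of the list genes named here passed in EpPT2 against Ctrl, namely Cldn3, Cldn4 and Zyx. In that setting edgeR called 268 of 28724 genes. The differences of these 3 genes were then 1.58, 1.34 and 1.09, near those with the filter. The unadjusted edgeR p of Cldn3 fell from 0.0194 to 1.2e-06. The 3 calls thus rest on how the spread was estimated and not on larger differences. The 3 are among the genes named for the smallest p in their lists, so their number is no measure of the lists. Of 30 epithelial genes, 20 were tested, with a median log2 difference of −0.01 in EpPT2 against Ctrl and 10 of them higher. Cldn3, a tight junction claudin, gave 1.56 (SE 0.56) and Cldn4 1.33 (SE 0.76), and lower were the epithelial factor Ehf at −0.90 (SE 0.57) and Krt18 at −0.20 (SE 0.21). The edgeR adjusted p of Cldn3 was 0.376 and that of Cldn4 0.472, and without the filter they were 9.8e-04 and 0.0262. Cldn4 gave −0.24 among the libraries with a low mitochondrial share. For the mitochondrial share, 8 of the 20 epithelial genes rose and 3 fell, beside 20.2% and 21.6% of all genes, among them Cldn3 (0.33, SE 0.07) and the plakophilin gene Pkp3 (0.28, SE 0.07) upward and Ehf (−0.39, SE 0.05) and the plakoglobin gene Jup (−0.13, SE 0.04) downward, with edgeR adjusted p = 1.3e-04 to 0.0138. Jup did not pass without Ctrl 3 or EpPT2 1 (edgeR adjusted p = 0.0541 and 0.0804), nor Pkp3 with the GC correction (0.0696). The splicing gene Esrp2 rose by 0.21 (SE 0.05) per percentage point, with edgeR adjusted p = 0.00878.

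Of 30 mesenchymal genes, 18 were tested, and 13 of these were higher in EpPT2 than in Ctrl, with a median of 0.32 beside −0.03 over all genes. The metalloproteinase gene Mmp14 gave 0.54 (SE 0.24), and the tropomyosin gene Tpm1 gave −0.60 (SE 0.39) and the collagen receptor gene Ddr2 −0.38 (SE 0.27). The edgeR adjusted p of Mmp14 was 0.40. In EpPT1 against Ctrl the median was 0.04, and in EpPT2 against EpPT1 it was 0.17. For the mitochondrial share, 7 of the 18 mesenchymal genes rose and 2 fell, beside 20.2% and 21.6% of all genes, among them the fibronectin receptor gene Itga5 (0.26, SE 0.04) and Sparc (0.14, SE 0.03) upward and Tpm1 (−0.25, SE 0.04) and Ddr2 (−0.13, SE 0.04) downward, with edgeR adjusted p = 6.3e-04 to 0.0248. Ddr2 did not pass without Ctrl 1, Ctrl 3 or EpPT1 3, nor with the GC correction or the filter of 5 CPM (adjusted p = 0.0506 to 0.166 in edgeR). The median slope was 0.12 in both the epithelial and the mesenchymal list, beside −0.01 over all genes.

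Of 26 other transcription factors and cofactors, 17 were tested. In EpPT2 against Ctrl their median was −0.24, with Tcf3, a partner of Twist proteins, at 0.72 (SE 0.25), Sox4 at 0.82 (SE 0.49), the histone deacetylase gene Hdac2 at −0.57 (SE 0.25) and the corepressor gene Sin3a at −0.62 (SE 0.34). With the GC correction, Tcf3 gave −0.09. For the mitochondrial share 2 of the 17 rose, beside 20.2% of all genes, Tbx3 (0.16, SE 0.04) and the Twist inhibitor gene Id1 (0.22, SE 0.08), and 6 fell, beside 21.6% of all genes, led by Hdac1 (−0.29, SE 0.05) and Tcf12 (−0.28, SE 0.05), with edgeR adjusted p = 5.6e-04 to 0.048. Id1 did not pass in limma-voom, with the GC correction or in 6 of 9 fits without 1 library, and without EpPT1 3 it gave 0.08 (edgeR adjusted p = 0.524) and Tbx3 0.11 (0.11). Twist2 was among the 6, at −0.18 (SE 0.06).

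Of 20 signalling genes that feed the transition, 18 were tested, with a median of −0.13 in EpPT2 against Ctrl. The ligand gene Tgfb1 gave 0.66 (SE 0.27), the inhibitor gene Smad7 0.48 (SE 0.47), the receptor gene Met −0.59 (SE 0.25) and Smad2 −0.51 (SE 0.39), with a lowest edgeR adjusted p of 0.385. For the mitochondrial share 4 of the 18 rose and 4 fell, near the 20.2% and 21.6% of all genes, among them Bmp4 (0.26, SE 0.04) and Smad7 (0.28, SE 0.05) against Smad3 (−0.28, SE 0.04) and the receptor gene Tgfbr2 (−0.16, SE 0.03), with edgeR adjusted p = 4.8e-04 to 0.00327.

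Intermediate filament relatives of Vim formed the last list, together with the filament linker gene Plec and the adhesion genes Vcl and Zyx. Of its 13 genes, 9 were tested. In EpPT2 against Ctrl 7 of the 9 were higher, with a median of 0.55. Over all genes the median was −0.03 and 52.1% were lower. With the filter on low counts, 0 of the 9 passed in edgeR. The focal adhesion gene Zyx gave 1.08 (SE 0.29) with an unadjusted p of 0.0037 and an edgeR adjusted p of 0.376 (0.0401 without the filter on low counts), the peripherin gene Prph 0.82 (SE 0.45), the vinculin gene Vcl −0.39 (SE 0.42) and the lamin gene Lmnb1 −0.14 (SE 0.28). Desmin and nestin, intermediate filament relatives of vimentin, were at 6.61 and 1.92 CPM on average (genes Des and Nes). For the mitochondrial share, Plec, which links filaments to junctions, rose by 0.37 (SE 0.04) and Prph by 0.28 (SE 0.04), while Vcl (−0.27, SE 0.04) and Lmnb1 (−0.16, SE 0.04) fell, with edgeR adjusted p = 1.0e-04 to 0.00518.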

How the data were processed

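The raw counts per gene that the authors deposited for 9 HC11 RNA-seq libraries (14549787 to 17228929 counts each) were analysed. Bowtie 0.12.2 and build mm8 are named in the submitters' processing notes, but 98.3% of the gene IDs found in GENCODE mouse release 21 have its GRCm38 start and end, so coordinates are GRCm38. For the counter, strand setting and filters, the sources used here give nothing. Gene length in the authors' deposited table served only to compare genes, and other per-library columns numbered 0.

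Members and lists were chosen with earlier results of these data known. In R 4.3.3, edgeR 4.0.16 was run with TMM, filterByExpr, 1 fit of all 9 libraries (6 residual degrees of freedom), two-sided quasi-likelihood tests and Benjamini-Hochberg adjustment at 0.05 over 14471 genes. Standard errors were derived from the F statistic. The slope on the mitochondrial share had the group as covariate. GC content came from the longest transcript per gene. Named genes were the 10 members, Cdh1, the 5 genes most like Vim (mean of at least 5 CPM, no predicted genes or pseudogenes), and from each list the 2 genes higher and 2 lower with the smallest p and at least 5 CPM; the latter are given for EpPT2 against Ctrl and for the slope, and other named genes were chosen after their values were seen. One gene that the rule names is not reported here. Alternatives were DESeq2 1.42.0, limma-voom (limma 3.58.1), other scaling, filters, libraries and covariates. The fits were tested on simulated data. In the 3 comparisons of groups, 59% to 76% of simulated 4-fold changes and 11% to 18% of 2-fold changes were recovered. Each gene was simulated on its own, with the spread typical of its level. In the data, the SD of Vim, Snai1, Zeb2 and Grhl2 reached or exceeded that of 84.6% to 89% of tested genes. For Zeb1 and Cdh2 this was 51.4% and 56%. The recovery may therefore be too high for the first 4 genes. No replicate pair agreed within sampling noise (lowest chi-square per gene 4.95, EpPT2 2 with EpPT2 3). The other pairs within a group gave 52 to 163. Some libraries of different groups lay closer to each other than that. EpPT1 2 and EpPT2 1 gave 5.66, and Ctrl 2 and EpPT1 1 gave 15.1. EpPT1 3 gave 7.86 with EpPT2 2 and 9.26 with EpPT2 3.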

Additional observations from a re-analysis of the deposited data

How the results depend on the processing

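None of the alternatives run made any of the 6 tested genes pass in a comparison of groups. Against 0 in the 3 comparisons, edgeR without a filter called 32, 268 and 2 genes (EpPT1 against Ctrl, EpPT2 against Ctrl, EpPT2 against EpPT1), DESeq2 called 1 and 62 in the first 2, and leaving out 1 library gave 0 to 2 in EpPT2 against Ctrl. For the mitochondrial share, leaving out 1 library gave 3880 (without EpPT2 1) to 7262 genes and 1 (without Ctrl 3) to 5 (without EpPT1 1) members, and no filter gave 5 members.

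Whether the replicate numbers pair the libraries is not labelled. Same-numbered deviations correlated at 0.67 to 0.75 for replicate 3, 0.18 to 0.76 for replicate 1 and −0.68 to 0.09 for replicate 2. The mitochondrial share was high in every library numbered 3 and low in every library numbered 1. The block and the share therefore overlap, and their parts cannot be told apart well. With the replicate number as a block, edgeR called 185 genes and 0 members for the mitochondrial share, against 6047 and 3, and all 23 named genes with a call lost it. The slopes were then −0.36 for Zeb2, −0.24 for Cdh2, 0.58 for Vim, −0.59 for Snai1, 0.59 for Grhl2 and 0.03 for Zeb1. That block gave Cdh2 0.06 and Grhl2 0.06 in EpPT1 against Ctrl, and 0 genes were called in the 3 comparisons.

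Other signs turned among values that did not pass, and the cause was not tested. In limma-voom, Cdh2 gave 0.09 (EpPT1 against Ctrl) and Grhl2 0.10 (EpPT2 against EpPT1). After GC correction, Zeb2 gave 0.11 (EpPT1 against Ctrl), Snai1 −0.14 and Tcf3 −0.09 (EpPT2 against Ctrl) and Vim 0.08 (EpPT2 against EpPT1). With the mitochondrial share as covariate, Cdh2 gave 0.01, 0.12 and 0.11 in the 3 comparisons, Lmnb1 0.02 (EpPT2 against Ctrl) and Zeb2 0.14 (EpPT2 against EpPT1). In the 5 libraries of a low share, Cldn4 gave −0.24 and Krt18 0.04 (EpPT2 against Ctrl), and Snai1 0.62 and Zeb2 0.06 (EpPT2 against EpPT1).

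Leaving out 1 library moved EpPT1 against Ctrl to −0.86 to 0.04 for Vim, −0.54 to 0.22 for Zeb2, −0.37 to 0.36 for Cdh2 and −0.49 to 0.32 for Grhl2. EpPT2 against Ctrl ran from −0.30 to 0.84 for Snai1, −0.51 to 0.22 for Cdh2, −0.56 to 0.20 for Grhl2, −0.70 to 0.12 for Vcl and −0.35 to 0.12 for Lmnb1. EpPT2 against EpPT1 ran from −0.37 to 0.26 for Vim, −1.01 to 0.43 for Snai1, −0.90 to 0.01 for Zeb2 and −0.49 to 0.24 for Grhl2. Zeb1 kept its sign in EpPT2 against Ctrl (−0.87 to −0.57). Depth limits Esrp1 and Ovol1, with 5 and 21 counts.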
